A study of Homo sapiens with 2 samples.

Results

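The genes described here are the neural SOX transcription factors other than SOX2, 10 genes in 4 classes. SOX1 and SOX21 stood for SOXB, SOX4, SOX11 and SOX12 for SOXC, SOX5 and SOX6 for SOXD, and SOX8, SOX9 and SOX10 for SOXE. An OTX2 peak was counted for a gene when at least 1 bp of it overlapped the GENCODE gene record in GRCh38 extended by 100 kb on each side, which is called the window below. By this rule 239 of the 137412 OTX2 peaks lay in the windows of the 10 genes, out of 19881 protein-coding genes on the chromosomes. No 2 of these windows overlapped, so no peak was counted for more than 1 gene.

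The data came from D283, an established medulloblastoma (MB) cell line with features of Group 3 and Group 4 MB. The cells were grown as tumorspheres in neural stem cell medium. The study calls these tumorspheres OTX2-high, its name for the scramble small interfering RNA control. Whether they had received that RNA is not stated in its methods. No knockdown or other condition was compared. There were 2 libraries, 1 of chromatin immunoprecipitated with an OTX2 antibody (ChIP) and 1 of input chromatin with no antibody, both from this line. Neither condition had a replicate, so no difference below has a replicate error and no test was made between genes or classes, which are not replicates of a condition. The ChIP library held 61259377 fragments after duplicate removal and the input library 22521186, a depth ratio of 2.72. The height of a peak is the pileup of ChIP fragments at its summit, as scaled by the authors, and 1 fragment equalled 0.735 units of pileup. Fold enrichment divides the pileup plus 1 by the local input plus 1. Over all peaks the median was 53 fragments (quartiles 34 and 95) and the median fold enrichment was 6.10 (quartiles 4.19 and 10.4). Intervals given for fragments are 95% Poisson intervals and cover counting error only. RNA was not measured in these libraries, so the levels of OTX2 and of the SOX genes, and the labelled cell type, were not checked here.

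SOX proteins share an HMG-box DNA-binding domain and are classed by its sequence. SOX1 belongs with SOX2 to the activators that keep neural progenitors undifferentiated, whereas SOX21 is a repressor that counteracts them. The SOXC factors act in postmitotic neurons and their immediate precursors, where SOX4 and SOX11 switch on neuronal genes. The SOXD factors lack an activation domain and modify the action of other SOX proteins, and the SOXE factors act in neural crest and glia, with SOX9 in astrocytes and gliogenic progenitors, and SOX8 and SOX10 in oligodendrocytes. OTX2 is a homeodomain protein that binds the sequence TAATCC and its close variant TAATCT.

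The promoters are shown first, since they are the stretches next to the genes where a peak and the bases under it could be read together. RefSeq (GRCh38.p14) gave 10 promoter entries for 6 of the 10 genes, namely SOX1, SOX21, SOX4, SOX12, SOX5 and SOX6. Each entry covered the 250 bases before a transcription start, and both strands were searched for TAATCC and TAATCT. An OTX2 peak lay over 4 of the 10 entries, and 2 of those 4 held a motif. Of all 35116 promoter entries, 29.5% lay under a peak and 11.4% held a motif. A motif was found in 11.9% of the entries under a peak and in 11.2% of the others, so the motif was about as common without a peak as with one. The 4 entries below are written 5′ to 3′ in the direction of transcription, with a match to either motif in capitals. They were chosen because 2 of them hold a motif under a peak, 1 lies under a peak and holds no motif, and 1 has neither.
SOX4 (chr6:21593501-21593750, plus strand, under a peak): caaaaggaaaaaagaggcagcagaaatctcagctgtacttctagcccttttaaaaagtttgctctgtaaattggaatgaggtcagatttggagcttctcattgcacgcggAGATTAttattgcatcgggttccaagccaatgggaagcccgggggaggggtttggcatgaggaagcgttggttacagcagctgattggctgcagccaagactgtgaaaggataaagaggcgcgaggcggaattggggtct
SOX6 internal start (chr11:16402868-16403113, minus strand, 182 bases under a peak): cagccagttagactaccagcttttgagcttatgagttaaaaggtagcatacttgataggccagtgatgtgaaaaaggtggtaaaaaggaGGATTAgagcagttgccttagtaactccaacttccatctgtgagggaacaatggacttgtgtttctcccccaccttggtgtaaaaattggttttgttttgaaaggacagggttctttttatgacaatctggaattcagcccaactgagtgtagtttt
SOX12 (chr20:325302-325551, plus strand, under a peak over 189 of its bases): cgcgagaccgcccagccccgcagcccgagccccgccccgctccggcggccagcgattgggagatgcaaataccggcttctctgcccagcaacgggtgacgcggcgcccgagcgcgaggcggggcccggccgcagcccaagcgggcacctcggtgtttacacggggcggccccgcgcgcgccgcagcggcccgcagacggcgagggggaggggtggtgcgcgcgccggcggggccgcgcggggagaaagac
SOX1 (chr13:112066899-112067148, plus strand, no peak): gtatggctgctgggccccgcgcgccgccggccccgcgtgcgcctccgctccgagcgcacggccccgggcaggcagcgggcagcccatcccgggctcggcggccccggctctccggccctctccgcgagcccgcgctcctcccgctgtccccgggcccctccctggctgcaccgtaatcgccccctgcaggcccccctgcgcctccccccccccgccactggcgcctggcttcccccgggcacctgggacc
The capitals in SOX4 are TAATCT read on the opposite strand, from 140 to 135 bases upstream of the start and 21 bp from the summit of the peak. In SOX6 they are TAATCC on the opposite strand, from 161 to 156 bases upstream of this internal start and 56 bp from the summit. The GC content was 48.8% in SOX4 and 40.8% in the whole SOX6 entry, against 79.2% in SOX12 and 82% in SOX1, with a median of 58% over all entries. A match is a description of the letters and does not show which bases OTX2 contacted, and peak sequences beyond these promoters were not analysed here.

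OTX2 peaks were present in the windows of 9 of the 10 genes, against 97.3% of all protein-coding genes, and the exception was SOX1. Peaks per window ran from 0 at SOX1 and 2 at SOX8 to 67 at SOX5. Because SOX5 and SOX6 are far longer than the rest, density per Mb of window was used to compare the genes. It was 151 peaks per Mb at SOX12, 122 at SOX9, 88.7 at SOX21, 73.2 at SOX4, 62.7 at SOX6, 54.3 at SOX5, 47.8 at SOX11, 46.1 at SOX10, 9.75 at SOX8 and 0 at SOX1. With 1 ChIP library, neighbours in this order could not be set against a replicate spread. The median of the 10 genes was 58.5 peaks per Mb, and that of all protein-coding genes was 51.8 (quartiles 29.4 and 75.5). SOX12 lay above 99.1% and SOX9 above 96.2% of protein-coding genes, while SOX8 lay above only 8.21%. Densities also differ between chromosomes. The density of a chromosome was taken between its first and its last peak, so stretches beyond those are left out. Set against their own chromosome, SOX12 had 3.68 times, SOX9 2.19 times, SOX21 1.87 times and SOX4 1.44 times its density. SOX6, SOX10, SOX11 and SOX5 lay between 0.965 and 1.19 times, and SOX8 at 0.295 times.

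**Figure D1:**
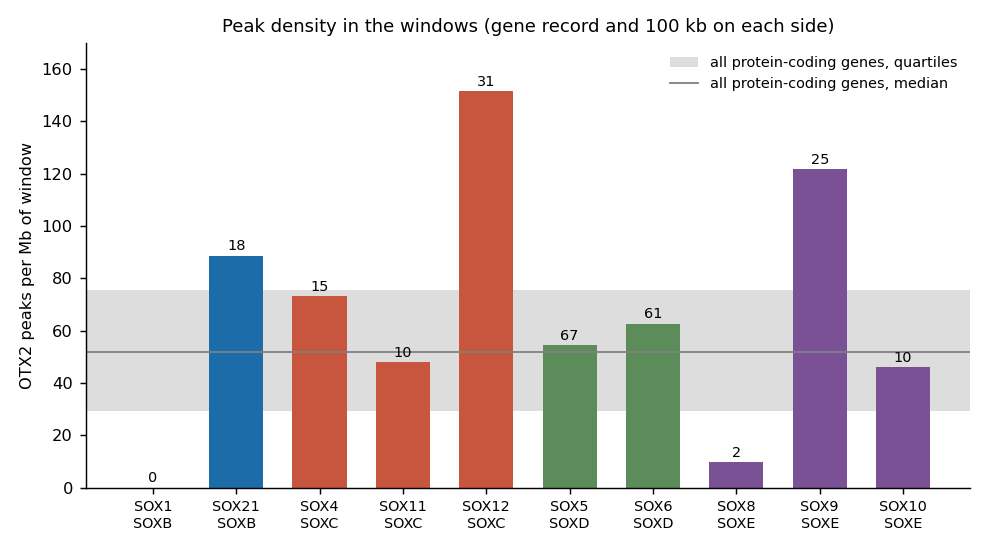
Bars give OTX2 peaks per Mb of window for each of the 10 SOX genes, coloured by class, with the number of peaks above each bar. The grey band and line are the quartiles (29.4 and 75.5) and median (51.8) over all protein-coding genes. SOX12, SOX9 and SOX21 stand above the band, SOX8 and SOX1 stand below it, and the other 5 lie within it.

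At the transcription start the same genes were split differently. A peak within 5 kb upstream to 2 kb downstream of the 5′ end of the gene record (TSS) was found for 6 of the 10, against 57.2% of protein-coding genes, and these were SOX4, SOX11, SOX12, SOX5, SOX6 and SOX9. Within 1 kb of the TSS there was a peak for 5 of them, all but SOX11, against 46.9% of protein-coding genes. The gene record itself was overlapped in 7 genes, against 69.5%, with SOX21 added to those 6. All 3 of these shares were close to those of protein-coding genes. All 3 SOXC and both SOXD genes had a peak near the TSS, as did SOX9 among the 3 SOXE genes, whereas neither SOXB gene had one. For SOX5 and SOX6 this rests on the TSS used, and at the start of the canonical transcript 4 of the 10 genes (SOX4, SOX11, SOX12 and SOX9) had a peak, against 58.5% of protein-coding genes.

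Among the SOXB genes, SOX1 and SOX21 lie on the same chromosome and were opposites. SOX1 (chr13:112067149-112071706, plus strand), a single-exon gene of neural stem cells, had no called peak in its window and none within 200 kb. The nearest summit was 277 kb downstream, with 31 fragments at 4.77-fold enrichment. With 500 kb on each side its density was 1.99 peaks per Mb, while chromosome 13 had 47.5 between its first and its last peak. This means that no peak was listed there at the authors' q-value cutoff of 0.05 and at this depth, since the list gives no coverage outside called peaks.

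SOX21 (chr13:94709622-94712545, minus strand) had 18 peaks, 6 upstream and 12 downstream. Only 1 of them lay within 10 kb of the TSS, and its summit was 3.43 kb downstream of the TSS, where 61 fragments (46.7 to 78.4) were counted and enrichment was 4.64-fold. The highest peak, 84.4 kb downstream, held 274 fragments (243 to 308) at an enrichment of 22.1-fold, and it lay within the neighbouring gene GPR180. The next highest were 34.7 kb downstream, with 240 fragments at 16.1-fold enrichment, and 31.3 kb upstream, with 202 fragments at 18.9-fold enrichment. The upstream one lay in SOX21-AS1, the long noncoding RNA (lncRNA) transcribed from the other strand, whose record held 7 of the 18 summits. Of the 18 summits 11 were nearer to the TSS of SOX21 than to that of any other protein-coding gene. The OTX2 peaks around SOX21 were thus nearly all more than 10 kb from its TSS. Most peaks of the other short genes with peaks were too. The median local input under its peaks was 8.60 units of pileup, against 5.00 over all peaks, so the same height gave a lower fold enrichment here.

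**Figure D2:**
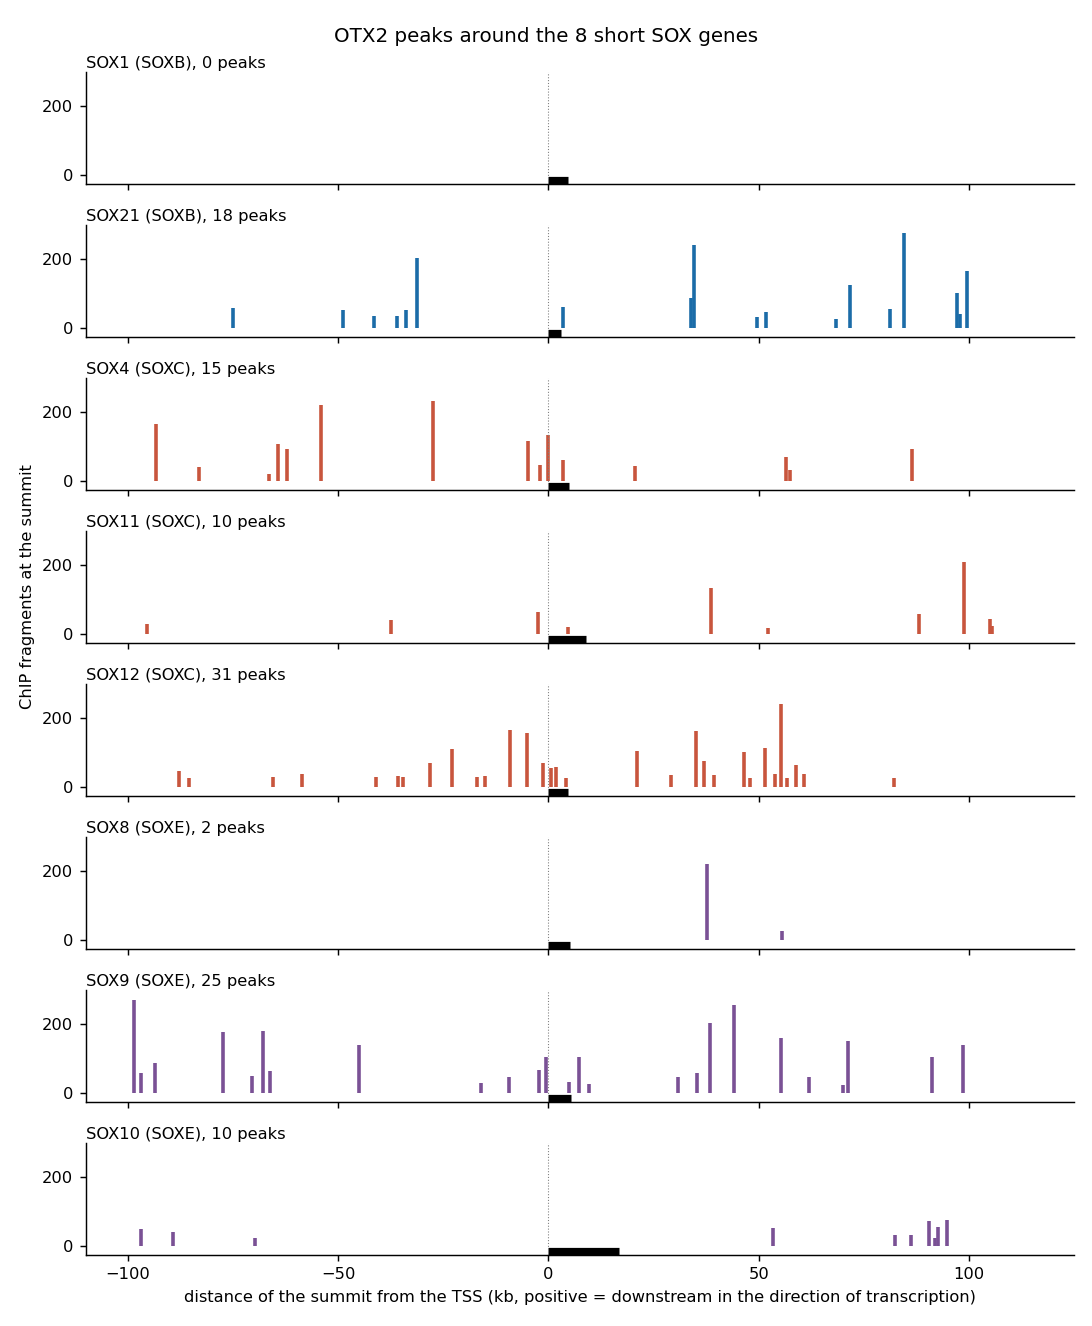
Each line is an OTX2 peak, placed by the distance of its summit from the TSS in kb (x axis, positive is downstream) and as high as its number of ChIP fragments (y axis), for the 8 short genes, with the gene record as a black bar. SOX4, SOX12 and SOX9 have peaks at the TSS, though most of their peaks are distal too. SOX21, SOX8 and SOX10 have no peak at the TSS, and SOX1 has 0 peaks.

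The SOXC genes had the highest density as a class and each had OTX2 near its start. SOX4 (chr6:21593751-21598619, plus strand), which promotes neuronal differentiation, had 15 peaks, of which 10 were upstream, 1 in the gene record and 4 downstream. The peak at its TSS had a summit 114 bp upstream, over the promoter printed above, where 134 fragments (112 to 159) were counted and enrichment was 14.2-fold. Wide peaks flanked it on either side. The upstream one, with its summit 4.88 kb upstream, was 2056 bp long, longer than 99.5% of all peaks, and had 115 fragments at 15.7-fold enrichment. The downstream one, 3.38 kb away, was 2205 bp long and covered part of the gene itself, with 61 fragments at 9.20-fold enrichment. The peak of highest enrichment in the window was 27.5 kb upstream, where 231 fragments (202 to 263) were counted and enrichment was 21.4-fold, and another 54.0 kb upstream had 219 fragments at 16.2-fold enrichment. Both lay in an unnamed lncRNA that held 7 of the 15 summits. No other protein-coding gene lay in this window. The median height was 93 fragments, above that of every other gene here with more than 2 peaks.

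SOX11 (chr2:5692384-5701385, plus strand), also an activator of neuronal genes, had 10 peaks, and its density of 47.8 per Mb equalled that of chromosome 2 (ratio 1.00). The nearest peak was 2.49 kb upstream of the TSS, where 64 fragments (49.3 to 81.7) were counted and enrichment was 9.64-fold. The strongest peaks were distal, 98.6 kb downstream where 208 fragments (181 to 238) were counted and enrichment was 30.8-fold, and 38.6 kb downstream with 134 fragments at 20.0-fold enrichment. The former was higher in fold enrichment than 98.6% of all peaks. The remaining 7 peaks had between 17 and 59 fragments, so that the window held few peaks, a pair of them strong. As at SOX4, no other protein-coding gene lay in the window.

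SOX12 (chr20:325552-330224, plus strand), the third SOXC gene, had 31 peaks, the most of any short gene here, but it shared its window with 8 other protein-coding genes. Only 6 summits were nearer to its TSS than to that of another gene, and 8 lay near the TSS of a neighbour and not of SOX12. The 6 summits nearest to SOX12 lay 9.03 kb, 5.09 kb and 1.18 kb upstream and 722 bp, 1.86 kb and 4.12 kb downstream. Their heights were 166, 157, 70, 55, 59 and 25 fragments in that order, and their fold enrichments 12.3, 10.6, 9.63, 3.77, 8.90 and 3.89. The peak 1.18 kb upstream was 1846 bp long and reached into the printed promoter. The strongest peak of the window, 55.4 kb downstream where 242 fragments (212 to 274) were counted and enrichment was 29.8-fold, lay inside TRIB3, whose TSS was the nearest. The median height at SOX12, 38 fragments, was the lowest of the 9 genes with peaks. The high density at SOX12 therefore came with a crowded window and many low peaks. Among all protein-coding genes the median density was 41.7 per Mb with 0 other genes in the window, 51.6 with 1 to 4 and 53.4 with 5 or more. A link between neighbours and the density at SOX12 was not tested.

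The SOXD genes SOX5 and SOX6 held 128 of the 239 peaks, and their density was near that of long genes in general. Protein-coding genes of at least 500 kb (322 genes) had a median of 49.0 peaks per Mb (quartiles 32.8 and 63.9), beside 54.3 at SOX5 and 62.7 at SOX6. In count alone SOX5 exceeded 99.5% and SOX6 99.3% of protein-coding genes.

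SOX5 (chr12:23529504-24562544, minus strand), which takes part in the specification of deep-layer cortical neurons, had 67 peaks. At the 5′ end of its record 4 peaks were found upstream, with summits at 509, 1199, 2788 and 5306 bp. Their heights were 20, 71, 112 and 138 fragments, and their fold enrichments 3.15, 9.37, 15.6 and 15.0, so the peak nearest to the TSS was the lowest of the 4. The strongest peak lay 998 kb downstream of the record's start, in intron 10 of the canonical transcript, where 336 fragments (301 to 374) were counted and enrichment was 35.4-fold. Next in enrichment were peaks 182 kb downstream, with 265 fragments at 33.1-fold enrichment, and 274 kb downstream, with 234 fragments at 28.8-fold enrichment. Both of the latter lay between the 5′ end of the record and the canonical transcript, which starts 613 kb further in and had 0 peaks near its own start. Of the 56 summits inside the record, 0 lay in an exon of the canonical transcript, 21 in its introns and 35 outside it, and 0 lay in an exon of any transcript. Of 20 annotated transcript starts 6 had a peak within 5 kb upstream to 2 kb downstream, of which 5 cluster at the 5′ end. When the record was divided into 3 equal stretches from the 5′ end, they held 23, 15 and 18 summits. The 100 kb upstream held 9 peaks and the 100 kb downstream 2.

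SOX6 (chr11:15966449-16739591, minus strand), which acts with SOX5 and directs the fate of cortical interneurons, had 61 peaks, and its 3 stretches held 10, 18 and 20 summits, with the fewest at the 5′ end. The peak at the start of the record had its summit 1.03 kb downstream, in an exon, where 101 fragments (82.3 to 123) were counted and enrichment was 10.6-fold. Across the record 11 of 17 annotated transcript starts had a peak near them, but not the canonical start 383 kb in. Several of these starts lie close together and share the same peaks. No share over all annotated transcript starts was computed to set beside this count or that of SOX5. A group of 3 neighbouring starts at 337 kb had 3 peaks each, among them the low one over the printed promoter with 45 fragments at 5.28-fold enrichment, and a higher one 335 kb from the 5′ end with 256 fragments at 15.8-fold enrichment. The peak of highest enrichment among all 239 was 849 kb downstream of the 5′ end, beyond the 3′ end of the gene, where 298 fragments (265 to 334) were counted and enrichment was 40.4-fold, which exceeded 99.8% of all peaks. Inside the record the most enriched peaks were 343 kb in, with 271 fragments at 38.3-fold enrichment, and 447 kb in, in intron 3 of the canonical transcript, with 322 fragments, a fold enrichment of 29.7 and a length of 2407 bp. The highest pileup, 346 fragments at 700 kb in intron 12, had a fold enrichment of only 14.2, so that order by height and order by enrichment differed. Of the 48 summits in the record 1 lay in an exon of the canonical transcript (exon 16), 28 in its introns and 19 outside it. The gene C11orf58 starts within the SOX6 record and has an exon across the 5′ promoter of SOX6, so the peak there cannot be given to SOX6 alone.

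**Figure D3:**
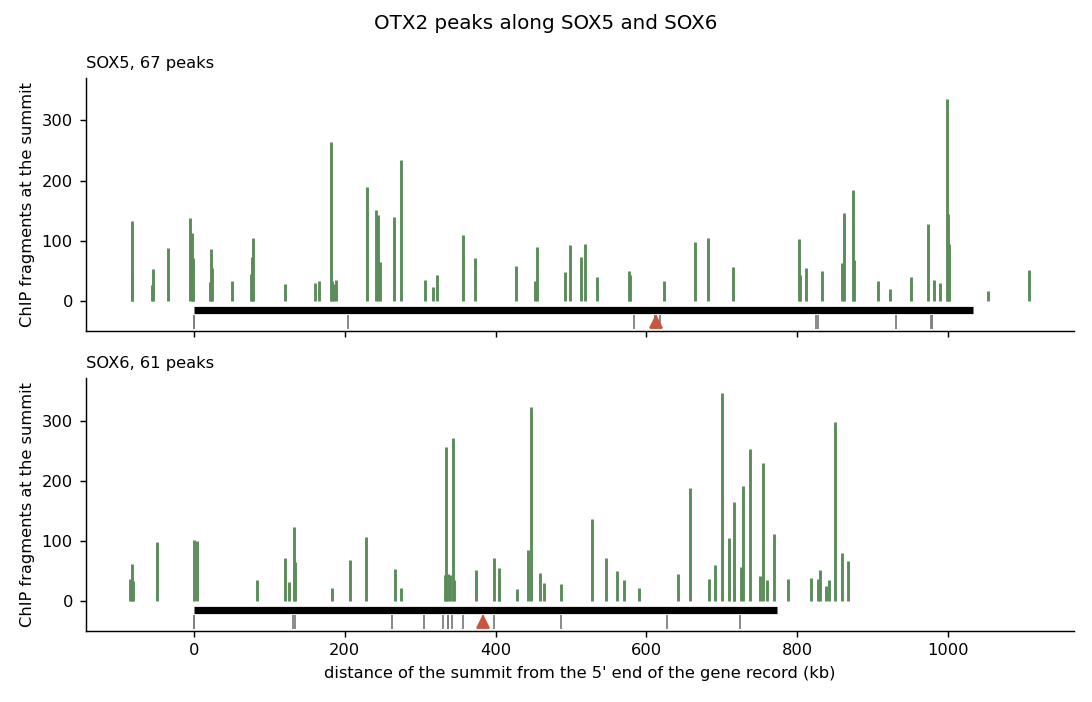
Each line is an OTX2 peak along SOX5 (upper) and SOX6 (lower), by the distance of its summit from the 5′ end of the gene record in kb (x axis) and its number of ChIP fragments (y axis). The black bar is the gene record, grey ticks are annotated transcript starts and the triangle is the canonical one, 613 kb into SOX5 and 383 kb into SOX6, where no peak lay near the start.

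The SOXE genes differed widely among themselves. SOX8 (chr16:981770-986979, plus strand), a glial and neural crest factor, had 2 peaks and none near its TSS. The stronger was 37.7 kb downstream, where 221 fragments (193 to 252) were counted and enrichment was 24.7-fold, higher than 96.6% of all peaks. The other, 55.5 kb downstream, held 27 fragments (17.8 to 39.3) at an enrichment of 4.18-fold. A sparse window therefore held a strong peak, and chromosome 16 had 33.0 peaks per Mb, beside 9.75 here.

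SOX9 (chr17:72121020-72126416, plus strand), which drives gliogenesis, had 25 peaks, 12 upstream, 1 in the record and 12 downstream, in a window with no other protein-coding gene. Such windows (1007 genes) had a median of 41.7 peaks per Mb and an upper quartile of 64.5, against 122 at SOX9. The peak at its TSS had a summit 588 bp upstream, was 1741 bp long, and held 104 fragments (85.0 to 126) at an enrichment of 11.1-fold. A further peak 2.24 kb upstream had 66 fragments at 5.26-fold enrichment. The strongest peaks lay far from the gene on both sides. They were 98.4 kb upstream where 270 fragments (239 to 304) were counted and enrichment was 20.7-fold, 98.6 kb downstream with 139 fragments at 17.6-fold enrichment, and 44.2 kb downstream with 256 fragments at 17.2-fold enrichment. All 25 summits lay within lncRNA records that overlap each other, 22 of them in an unnamed lncRNA, 18 in SOX9-AS1 and 7 in ROCR. ROCR is a lncRNA named for its part in SOX9 induction during cartilage formation. Of the 25 peaks 17 were higher than the median peak of the whole list. The median height of all 25 was 87 fragments, against 53 over all peaks. Their median fold enrichment was closer to that of the whole list, at 6.85 against 6.10. The median local input under the SOX9 peaks was above that over all peaks. As at SOX21, the same height therefore gave a lower fold enrichment here. The density at SOX9 was 123 peaks per Mb with a flank of 50 kb, 106 with 200 kb and 68.6 with 500 kb.

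SOX10 (chr22:37970686-37987422, minus strand), the oligodendrocyte and neural crest factor, had 10 peaks, none of them close to the gene. The nearest summit was 53.3 kb downstream, where 54 fragments (40.6 to 70.5) were counted and enrichment was 3.70-fold, and none of the 9 annotated transcript starts had a peak. The strongest was 94.8 kb downstream, where 75 fragments (59.0 to 94.0) were counted and enrichment was 11.3-fold, and 0 of the 10 reached the top 10% of all peaks, which began at a fold enrichment of 17.1. All 10 summits were nearer to the TSS of another gene, and 4 lay near such a TSS. With a flank of 50 kb the density at SOX10 was 8.57 peaks per Mb, against 46.1 with 100 kb and 67.2 with 200 kb. Among the 3 SOXE genes only SOX9 had OTX2 at its start.

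**Figure D4:**
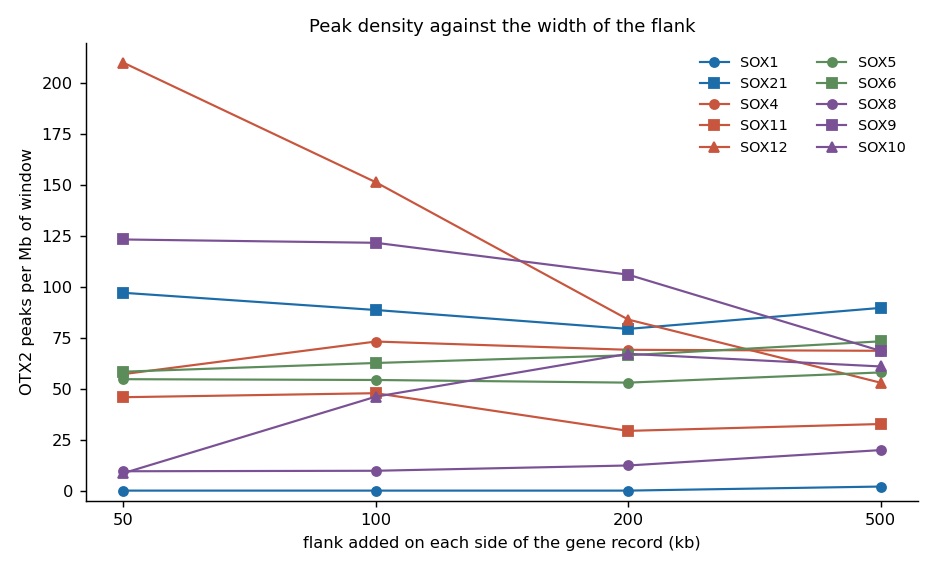
OTX2 peaks per Mb of window (y axis) for each gene when 50, 100, 200 or 500 kb is added on each side of its record (x axis, equally spaced steps), coloured by class. SOX12 falls from 210 to 53.0 and SOX10 rises from 8.57 to 61.0, while SOX1 stays lowest at each width.

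By class, the density was 90.5 peaks per Mb in SOXC (56 peaks in 0.619 Mb), 59.0 in SOXE (37 peaks in 0.627 Mb), 58.0 in SOXD (128 peaks in 2.21 Mb) and 44.2 in SOXB (18 peaks in 0.407 Mb). The ranges over the members overlapped, from 47.8 to 151 in SOXC, from 9.75 to 122 in SOXE, from 54.3 to 62.7 in SOXD and from 0 to 88.7 in SOXB. Without SOX12 the SOXC class had 60.4 peaks per Mb, close to SOXE and SOXD. With a flank of 200 kb SOXE came first (61.9, against 60.7 in SOXC and 59.1 in SOXD), and with 500 kb SOXD did (65.2, against 51.3 in SOXC). Likewise SOXE without SOX9 had 28.4, and the SOXB value pools a gene with no peak and another with 18. When only peaks nearest to the gene or inside its record were counted, the order changed to 53.0 in SOXD, 50.1 in SOXC, 41.4 in SOXE and 27.0 in SOXB. This rule keeps every summit inside a record, and 104 of the 128 SOXD summits lay inside the long records. At SOX6 only 6 of 61 summits were nearest to the 5′ end of its own record. The other annotated starts of SOX6 were not used in this, though several had a peak near them. The first place of SOXD here thus depends on the rule.

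With all peaks in the windows, the median height of peaks differed far less between the classes than their density. The median pileup was 43.38 in SOXE (quartiles 29.4 and 102), 42.28 in SOXB (31.8 and 87.5), 40.07 in SOXD (25.7 and 75.9) and 37.5 in SOXC (23.2 and 77.8), against 38.97 over all peaks. These are 59, 57.5, 54.5 and 51 fragments. The quartile ranges of all 4 classes overlapped, and the order by height was not stable. SOXC, which was lowest here, lay above SOXB and SOXD with a −log10 q of at least 5 (45.6, against 44.1 and 44.5), with a flank of 50 kb and with nearest peaks alone. The median fold enrichment was 6.39 in SOXC, 6.34 in SOXE, 6.23 in SOXD and 4.43 in SOXB, where all 18 peaks were those of SOX21 with its higher local input. Peaks in the top 10% of the whole list by fold enrichment numbered 6 in SOXC, 4 in SOXE, 13 in SOXD and 2 in SOXB, together 25 of 239 or 10.5%, beside the 10% that the whole list has by definition. Over all 239 peaks the median was 56 fragments and a fold enrichment of 6.10, beside 53 fragments and 6.10 for the whole list.

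**Figure D5:**
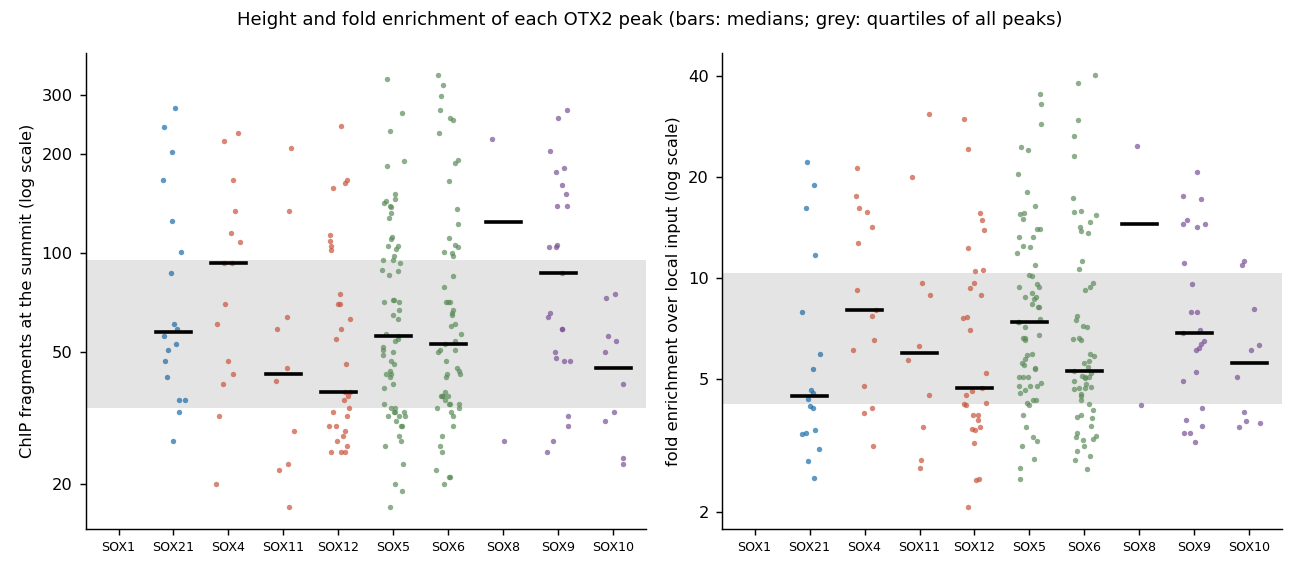
Each point is an OTX2 peak in the window of a SOX gene, by its number of ChIP fragments (left, log scale) and its fold enrichment over local input (right, log scale). Black bars are medians per gene and the grey bands are the quartiles of all peaks (34 to 95 fragments and 4.19 to 10.4 fold). The medians of all genes but SOX8, which has 2 peaks, lie within the bands.

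Around the short genes peaks were densest close to the TSS and sparse just beyond it. In the windows of the 8 short genes, 19 summits lay within 10 kb of the TSS, a density of 119 per Mb, against 79.6 for all protein-coding genes. Between 10 and 25 kb there were 6 summits or 25 per Mb, against 52.2 for all protein-coding genes. From 25 to 50 kb, 50 to 75 kb and 75 to 100 kb the densities were 67.5, 70.0 and 72.5 per Mb, against 52.5 to 52.6. The 19 proximal summits came from SOX12 and SOX9 with 6 each, SOX4 with 4, SOX11 with 2 and SOX21 with 1. SOX1, SOX8 and SOX10 had 0 summits within 25 kb. Over all 10 genes 61 summits lay upstream, 110 within the gene records, nearly all of them in SOX5 and SOX6, and 68 downstream. Of the 239 summits 64 lay in lncRNA records, and 28 of those were around the SOXE genes and 19 around the SOXC genes. At SOX9 alone there were 25 of them. The share of all peaks that lie in lncRNA records was not computed, so these counts do not show an excess or a lack.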

How the data were processed

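OTX2-bound DNA in D283 tumorspheres was measured with 1 ChIP library and 1 input library (84980793 and 32292980 fragments, of which 27.9% and 30.3% were duplicates). According to the submitters' processing notes and the study's methods, the authors used Bowtie2 2.2.4 for mapping to GRCh38. Peaks were called against input by MACS2 2.1.0.20140616 at a q-value cutoff of 0.05, and 1 fragment per position was kept. Masking of blacklisted regions is stated by the study. In the deposited list, pileup is a signal, the scaled ChIP coverage at the summit. Fold enrichment is deposited as a ratio, pileup plus 1 over local input plus 1. The p-value and q-value of a peak are deposited as −log10. Dividing pileups by 0.735 gave whole fragments within 0.0068 for all peaks. Local input was solved from pileup and fold enrichment, and 33.2% of peaks lay at its floor of 3.99. The input is the shallower library and limits the precision of a fold enrichment.

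Gene positions came from GENCODE release 44 as the GRCh38 exon positions recorded in its annotation on GRCh37, and no coordinate was converted. A peak counted with 1 bp of overlap. Peaks and windows were joined with pandas 2.3.3 and numpy 2.4.6 in Python 3.11.15, intervals were computed with scipy 1.17.1 and plots drawn with matplotlib 3.10.9, and the counting was tested on simulated data. No test between groups was made, since there was 1 library per condition.

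The SOX genes and lists were chosen with earlier results of these data known. The rule for named genes covered the 10 members, 9 other SOX genes by counts with values for the 2 highest and 2 lowest, and a neighbour where the strongest peak of a window lay near its TSS. For each member it covered the strongest and the nearest peak. Other neighbours, lncRNAs and peaks were named after their values were seen. Alternatives were peak thresholds (fold enrichment or −log10 q of at least 5), summits, flanks of 50 and 200 kb, nearest gene, RefSeq records, and other TSS windows and starts. A flank of 500 kb, leaving out each member and the canonical TSS were added after seeing the data.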

Additional observations from a re-analysis of the deposited data

How the results depend on the processing

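A density or count was called moved when it differed by more than 1.5 times from the reported value. A median pileup was called moved when it left the 95% interval of the median, which is wide for the smaller classes. That interval treats the peaks of a class as independent, though they come from 1 library and few loci. It serves only as a limit for this label and is not a replicate error. By these limits 15 of 105 values recomputed under alternatives moved. Requiring a fold enrichment of at least 5 left 149 of the 239 peaks. Densities were then 17.2 peaks per Mb in SOXB, 51.7 in SOXC, 38.5 in SOXD and 39.9 in SOXE, and median pileups rose to 122, 71.7, 63.2 and 76.5, as low peaks were removed. Counting only peaks nearest to the gene or inside its record gave 27.0 in SOXB and 50.1 in SOXC, with a median pileup of 70.2 in SOXE. A flank of 500 kb gave 637 peaks in all, and 51.3 peaks per Mb in SOXC. SOXB had 88.7 peaks per Mb without SOX1 and 0 without SOX21, and SOXE had 28.4 without SOX9, with a median pileup of 33.1. The class order by density changed with the flank, with nearest peaks alone and with single genes left out. The number of members with a peak near the TSS was 6 with a fold enrichment of at least 5 (38.5% of protein-coding genes), at a −log10 q cutoff of 5 (52.0%), with summits (56.3%), with RefSeq records (57.8%) and with any transcript start (66.6%). It was 5 within 1 kb of the TSS (46.9%) and 4 with the canonical start (58.5%). Beside these shares the members lay on either side of the background. No paired analysis was possible because neither the ChIP nor the input had a replicate. Depth limits low peaks most, since a peak of 17 fragments has an interval of 9.90 to 27.2 fragments from counting alone.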

Other observations

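The other SOX genes gave a narrower range, from 9.88 to 98.2 peaks per Mb, beside 0 to 151 in the genes above. The 9 genes looked at were SOX2, SOX3, SOX14, SOX13, SOX7, SOX17, SOX18, SOX15 and SOX30, and each had at least 2 OTX2 peaks in its window. SOX13, the third SOXD gene, had the highest density, with 25 peaks or 98.2 per Mb and a highest fold enrichment of 17.5. That most enriched peak lay inside ETNK2, whose TSS was the nearest. SOX7, a SOXF factor of endothelial cells, followed with 19 peaks or 91.9 per Mb, and the highest fold enrichment in its window was 43.9. The peak with that value lay 75.3 kb downstream, inside RP1L1. Only 5 of the 19 summits were nearest to the TSS of SOX7. The lowest densities were those of SOX2 and SOX3, which form the SOXB1 group with SOX1. SOX2 had 2 peaks or 9.88 per Mb, with 43 and 64 fragments, on a chromosome with 52.2 peaks per Mb. SOX3 had 2 peaks or 9.90 per Mb, with 21 and 65 fragments, on the X chromosome with 20.0 per Mb. Neither had a peak near the TSS. The 3 SOXB1 genes SOX1, SOX2 and SOX3 thus had 0, 2 and 2 peaks, while the SOXB2 genes SOX21 and SOX14 had 18 each. SOX14 was singled out after its values were seen, with 89.1 peaks per Mb. A peak near the TSS was found for 4 of the 9, namely SOX13, SOX15, SOX17 and SOX18, against 57.2% of protein-coding genes.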
